A study of Mus musculus with 8 samples.

Results

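The subject is the widest stretches of open chromatin in cultured mouse cardiac progenitors at day 7 (D7) of differentiation: accessible regions of at least 2000 bp, measured as end minus start, on chromosomes 1 to 19. Of 42192 regions in the D7 GLI1 list, 1511 were this wide, or 3.58%, and of 37973 regions in the D7 control list 1379 were, or 3.63%. Joined where they overlapped by at least 1 base, these broad regions made 1840 loci. Members were chosen by their measured width in either D7 list, so widths are given as a description without a test. Accessibility was measured by ATAC-seq, which marks open DNA by where a transposase cuts and tags it. All groups are cells of the line GLI1-FTA on the strain background A2Lox.cre, differentiated from embryonic stem cells. The first group, D7 GLI1, has 3 libraries from cells in which GLI1 was overexpressed by adding doxycycline at 500 ng/ml over the 48 hours before harvest, the second is untreated D7 control with 3 libraries, and the third is untreated D5 control with 2. Only the GLI1 group received the drug, so effects of doxycycline and of GLI1 cannot be told apart.

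Open chromatin at an active promoter is usually a gap of a few nucleosomes around the site where transcription begins. Wider open stretches occur where CpG-rich DNA, several factor binding sites or neighbouring promoters and enhancers lie side by side, and in many cell types they mark genes of regulators and of rapidly induced factors. GLI1 is a zinc finger protein that switches on target genes when the Hedgehog pathway is active, and Ptch1, which encodes the receptor, is one of these targets. In the early heart field, Hedgehog signalling acts on progenitors that are still to differentiate.

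The libraries of each group were pooled into 1 deposited peak list, so replicates could not be compared and no difference between groups has a replicate check. The lists held 63904, 58220 and 46805 peak summits in D7 GLI1, D7 control and D5 control. Intervals given are 95% Wilson intervals and cover counting error only. The depth of the libraries is not known from these files. That the control list belongs to D7 is an inference, made because its name matches the doxycycline list and a separate list exists for D5. The D7 lists held 570 (GLI1) and 530 (control) distinct folds, each with a single −log10 q at 1 decimal, and no peak shorter than 200 bp, whereas the D5 list held 10244 distinct folds and peaks down to 124 bp. The names of both D7 lists also hold the tags SPMR and rmBLchrM, and the name of the D5 list holds neither. The second tag reads as a removal of some regions, so filtering may differ as well. The D5 list thus has another form. How it was made is not given in the sources used here, and D7 and D5 folds and widths are not taken to be on 1 scale. Of 14 cardiac progenitor marker genes, 10 had an accessible region at the gene start in the GLI1 list, 11 in D7 control and 9 in D5 control. Gata4, Tbx5 and Hand1 had none at the start in either D7 list, and Nkx2-5 had none with GLI1. Of 5 pluripotency markers 2, 2 and 3 were accessible in the 3 lists in the same order, and of 5 neural markers 4 in each. Of 5 endothelial markers 1, 2 and 2 were, and of 4 endoderm markers 2, 1 and 1. Of all protein-coding genes, 36.7% had no region of either D7 list at the start. Accessibility of a gene start is not expression.

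Promoter DNA shows what most broad regions hold. The 4 promoters printed here, each inside a broad region of both D7 lists, belong to Ptch1, to Zmiz1 (one of the widest loci, a transcriptional coregulator of the PIAS-like family), to the immediate early gene Fos, and to Sp1, whose protein binds GC boxes and whose region had one of the highest folds. They run 5′ to 3′ along the strand of the gene, from 250 bases before the gene start to 50 after it, in RefSeq on GRCm38.p6, and capitals mark each CG dinucleotide (CpG).
Ptch1, chr13:63565686-63565985, minus strand: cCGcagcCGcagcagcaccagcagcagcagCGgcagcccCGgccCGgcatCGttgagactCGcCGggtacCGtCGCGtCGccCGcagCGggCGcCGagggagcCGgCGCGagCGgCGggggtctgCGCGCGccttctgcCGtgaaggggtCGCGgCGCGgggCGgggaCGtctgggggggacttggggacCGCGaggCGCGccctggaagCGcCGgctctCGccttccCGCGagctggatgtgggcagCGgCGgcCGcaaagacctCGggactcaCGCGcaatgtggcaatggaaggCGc
Zmiz1, chr14:25458935-25459234, plus strand: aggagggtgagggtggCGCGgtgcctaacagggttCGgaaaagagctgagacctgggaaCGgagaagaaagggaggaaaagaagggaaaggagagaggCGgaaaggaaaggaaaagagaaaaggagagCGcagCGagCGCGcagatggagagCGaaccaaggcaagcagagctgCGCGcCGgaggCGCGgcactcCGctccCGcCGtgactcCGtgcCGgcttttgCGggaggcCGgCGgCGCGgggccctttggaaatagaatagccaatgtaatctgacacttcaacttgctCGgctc
Fos, chr12:85473640-85473939, plus strand: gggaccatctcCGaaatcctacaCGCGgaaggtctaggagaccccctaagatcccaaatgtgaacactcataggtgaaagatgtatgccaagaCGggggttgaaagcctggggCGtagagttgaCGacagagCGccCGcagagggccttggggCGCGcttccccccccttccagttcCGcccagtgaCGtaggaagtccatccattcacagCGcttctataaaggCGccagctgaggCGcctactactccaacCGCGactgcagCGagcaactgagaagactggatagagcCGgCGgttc
Sp1, chr15:102406066-102406365, plus strand: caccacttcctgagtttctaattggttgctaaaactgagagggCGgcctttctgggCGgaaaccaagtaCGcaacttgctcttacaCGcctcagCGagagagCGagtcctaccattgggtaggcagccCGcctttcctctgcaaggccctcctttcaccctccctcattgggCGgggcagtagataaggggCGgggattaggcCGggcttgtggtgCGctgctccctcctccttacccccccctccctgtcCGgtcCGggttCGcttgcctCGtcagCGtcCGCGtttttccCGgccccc
The Ptch1 promoter held 47 CpGs in its 300 bases and was 76.3% G and C, that of Zmiz1 26 CpGs and 60.7%, that of Fos 20 and 58.7%, and that of Sp1 19 and 61.7%. Sp1 had 4 copies of the GC box and 3 of the CCAAT box, and Fos had 1 TATA box.

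**Figure D1:**
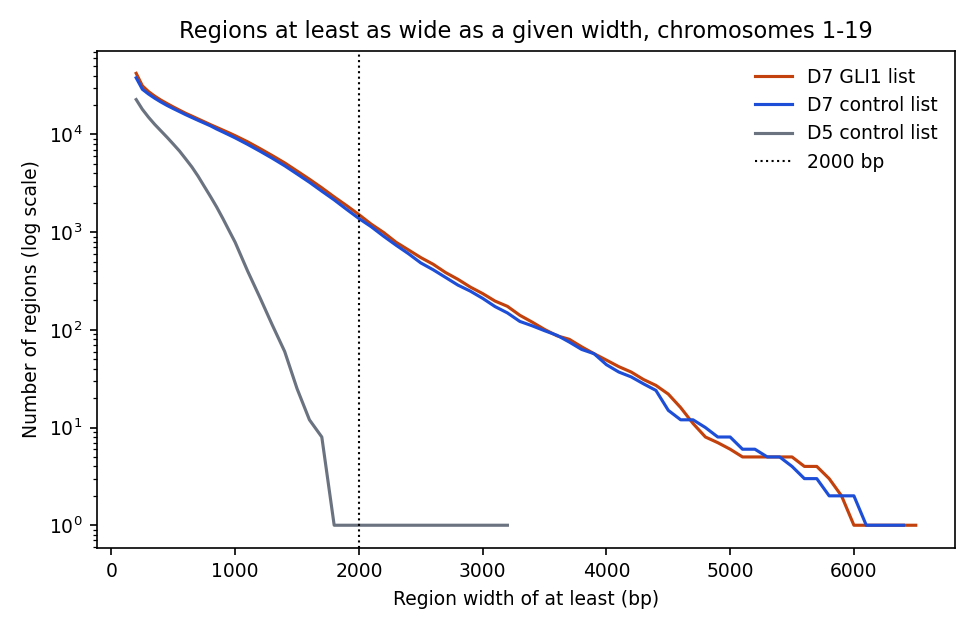
Number of accessible regions (log scale) that are at least as wide as the width on the horizontal axis (bp), for the D7 GLI1, D7 control and D5 control lists. Both D7 curves run close together past the 2000 bp line, with 1511 and 1379 regions beyond it, while the D5 list has 1.

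Over the 1831 RefSeq promoters of 1442 genes whose start lay in a broad region of either D7 list, the median was 66.7% G and C with 27 CpGs (quartiles 19 and 35). Of the promoters printed above, Ptch1 lay above these quartiles with 47 CpGs, and Zmiz1, Fos and Sp1 lay within them. Promoters in regions of 1000 to under 2000 bp had 63.3% and 24 CpGs (6761 promoters), promoters in regions under 1000 bp 57.7% and 14 (3908), and promoters with no D7 region 47.7% and 3 (7584). Over all 20084 promoters the median was 57.0% and 14 CpGs. The ratio of observed to expected CpGs had a median of 0.833 in broad regions, against 0.816, 0.612 and 0.195 in the narrower classes and in promoters with no region. So broad regions differed little from regions of 1000 to under 2000 bp in CpG content, and both were far above promoters with no D7 region.

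Short promoter motifs were searched on both strands. The GC box, GGGCGG, was in 78.8% of promoters in broad regions (76.8 to 80.6), in 71.2% of those in regions of 1000 to under 2000 bp, in 53.5% of those in regions under 1000 bp, in 14.5% of those with no region and in 47.0% of all promoters. The TATA box, TATAAA, was in 4.81% (3.92 to 5.88), 4.98%, 8.75% and 23.5% in the same order, and in 12.7% of all. The CCAAT box, searched as the 5 letters CCAAT, was in 36.6% of promoters in broad regions and in 38.1% of all. An ETS motif, CCGGAAGT, was in 4.21% of promoters in broad regions (3.38 to 5.22), in 9.35% of those in regions of 1000 to under 2000 bp (8.68 to 10.1), in 6.63% of those in regions under 1000 bp (5.89 to 7.45) and in 1.21% of those with no region (0.990 to 1.49), against 5.28% of all. Its share in broad regions was thus below that of both narrower classes and above that of promoters with no region. The NRF1 motif was in 2.08%, 2.63%, 0.972% and 0.211% in the same order, and in 1.34% of all promoters. None of these letter strings contains another, though adjoining matches can share end letters, and a match says only that the letters are there.

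GLI proteins bind the letters GACCACCCA. This motif was in 5 of 1831 promoters in broad regions, or 0.273% (0.117 to 0.638), and in 35 of all 20084, or 0.174%. The 5 are printed because GLI1 was the induced factor. Each stretch runs along the gene's strand with 10 bases on either side of the motif, which is in capitals and reads TGGGTGGTC where it lies on the opposite strand.
Magi3, chr3:104220570-104220598, minus strand: cctctacttaGACCACCCAatcagaaatc
Orai3, chr7:127769643-127769671, plus strand: gtacatacacTGGGTGGTCtgaggccagc
Pcif1, chr2:164879205-164879233, plus strand: gaccacaaggGACCACCCAgatcaaccgg
Slc35f5, chr1:125560598-125560626, plus strand: gctctgggcaGACCACCCAggcctagggt
Zmynd11, chr13:9765436-9765464, minus strand: agagtgataaTGGGTGGTCcattctttct
The match lay 182 bases before the gene start in Magi3, 162 before it in Orai3, 153 before it in Pcif1, 133 before it in Zmynd11 and 13 after it in Slc35f5. The promoters of Magi3 and Pcif1 were inside broad regions of both D7 lists, those of Orai3 and Zmynd11 in the GLI1 list, and that of Slc35f5 in the D7 control list. No promoter of a Hedgehog pathway gene was among these 5. The window holds 300 bases and a broad region at least 2000, so most of each region was not searched.

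Broad regions were made of several summits. The median was 4 summits per region in the GLI1 list (quartiles 3 and 5, range 1 to 12) and 4 in D7 control (quartiles 4 and 5, range 1 to 13), against 2 in regions of 1000 to under 2000 bp and 1 in regions under 1000 bp of either list. Per kilobase the median was 1.81 summits with GLI1 and 1.82 in D7 control, close to the 1.68 of regions of 1000 to under 2000 bp in each list and below the 3.38 and 3.22 of regions under 1000 bp, so the higher count went with the width. Neighbouring summits were a median of 446 bp apart with GLI1 and 441 bp in D7 control. Summits were unequal, since the highest had a median of 7.98 times the fold of the lowest in the same region with GLI1 and 7.49 times in D7 control. The fold is the authors' enrichment of a summit over the background of the same list.

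The median width was 2329 bp with GLI1 and 2330 bp in D7 control, and the broad regions held 13.4% and 13.1% of all accessible bases of these lists and 10.8% of the summits of each. Their highest fold had a median of 48.3 with GLI1 (quartiles 32.8 and 65.1) and 47.0 in D7 control (32.3 and 62.1). Regions of 1000 to under 2000 bp had 29.1 and 28.3, and regions under 1000 bp had 4.39 and 4.68. A region with more summits has more chances of a high one, and the part of this in the folds was not tested. Among broad regions alone, the Spearman correlation of highest fold with width was 0.04 with GLI1 and 0.07 in D7 control. Only 5 members in each D7 list had 1 summit, namely those at Dnpep, Ppp1r12a, Rxylt1, Esyt2 and Ak1 with GLI1 and those at Smc6, Tspan14, Ndufs8, Fbxw7 and Zbtb5 in D7 control, which are named because they were so few. Widths ran on through the limit of 2000 bp, with 306 regions in the first 100 bp above it and 359 in the last 100 bp below it in the GLI1 list, and 245 and 333 in D7 control. Just inside it, at 2000 bp, were regions near Mief2, Ak1 and Srsf6 with GLI1 and near Cdc42ep3, Mki67 and Zfp609 in D7 control. Just outside, short of it by at most 2 bp, were regions near Amotl1, Kcnd3 and Nkain3 with GLI1 and near Rnf165, Osbp and an unnamed position on chromosome 9 in D7 control.

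Most broad regions covered the start of a protein-coding gene. A start lay within 1 kb of, or inside, 1306 of 1511 broad regions with GLI1 (86.4%, 84.6 to 88.1) and 1164 of 1379 in D7 control (84.4%, 82.4 to 86.2). The share over all regions of these lists was 33.7% and 36.2%. Regions of 1000 to under 2000 bp had a start in 76.3% and 74.5%, and regions under 1000 bp in 20.5% and 23.5%. The promoter table lacks 4205 of 20661 genes, and for these either gene end was counted as a start. With the starts of the table alone, the shares of broad regions were 72.2% and 71.6%. This alternative was not run for the narrower classes. At least 2 gene starts lay at 14.4% of broad regions with GLI1 and 14.7% in D7 control, against 9.67% and 10.3% of regions of 1000 to under 2000 bp. The stretch searched grows with the region, so a wider region has more room for gene starts. This was not adjusted for. Pairs of genes at 1 broad locus included Cdca2 with Kctd9 and Agpat1 with Rnf5.

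Among members with a single gene start in the promoter table, the open stretch reached farther into the gene than away from it. It extended a median of 1295 bp downstream and 1065 bp upstream of the start in 712 GLI1 members, and 1257 and 1090 bp in 632 control members. The downstream arm was the longer in 61.2% with GLI1 (57.6 to 64.7) and in 60.6% in D7 control (56.7 to 64.3). The strongest summit lay a median of 84 bp before the start with GLI1 and 84.5 bp before it in D7 control, and within 250 bp of the start in 68.0% and 67.2%. The median fold of summits was 53.9 in each list from 100 to 200 bp upstream of the start, 42.5 with GLI1 and 39.2 in D7 control in the last 100 bp before it, and 22.5 and 22.2 from 100 to 200 bp downstream. It was thus highest some way upstream of the start and lower downstream.

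**Figure D2:**
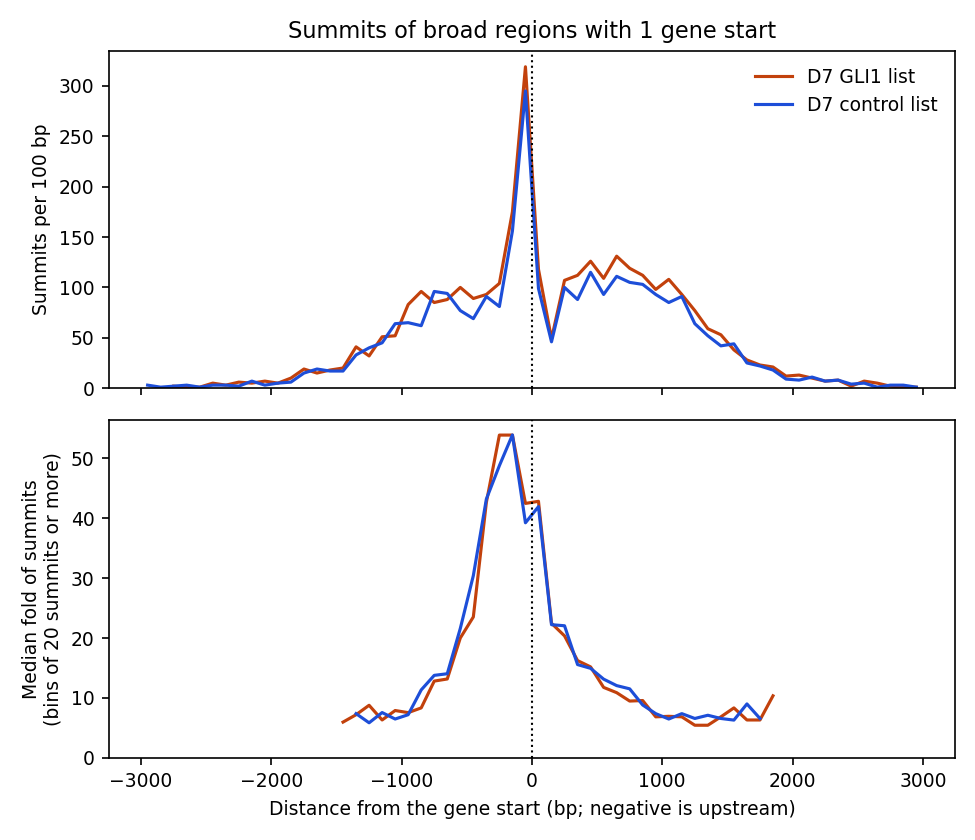
Summits of broad regions with a single gene start, by distance from that start in 100 bp bins (negative is upstream), as the number of summits (top) and their median fold in bins of 20 summits or more (bottom), for the D7 GLI1 and D7 control lists. The bin just upstream of the start held 319 summits with GLI1 and 295 in D7 control, and the bin from 100 to 200 bp downstream held 49 and 46.

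The widest broad region of the GLI1 list was 6540 bp with 12 summits, at Midn (chr10:80146795-80153334), which encodes the nuclear protein midnolin. The same place was open over 5494 bp with 12 summits in D7 control. In D7 control the widest was 6435 bp with 12 summits, at Brd2 (chr17:34117733-34124167), a bromodomain protein that reads acetylated histones, where the GLI1 region was 5872 bp with 11 summits. Kdm6b, which encodes a histone H3 lysine demethylase (chr11:69414547-69420781), was covered by 2 regions in each list, of together 6100 bp with 10 summits with GLI1 and 6309 bp with 14 summits in D7 control. The wider of the 2 was 3846 bp with GLI1 and 6030 bp in D7 control. All 3 places were thus broad in both lists, with other borders.

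The other wide loci of the GLI1 list were at Marcks, an actin-regulating kinase substrate (5955 bp with GLI1 and 5113 bp in 2 pieces in D7 control), Bbc3, which encodes the pro-apoptotic PUMA (5737 and 5806 bp), Zmiz1 (5531 and 5207 bp), Ptch1 (5078 and 4448 bp), Foxo3 (4941 and 4816 bp), Foxp2 (4830 and 4164 bp), Efna5, an ephrin ligand (4769 and 4947 bp), and Ssc5d (4754 and 4787 bp). Wide loci of the D7 control list were at Cic, the repressor capicua (5477 bp with GLI1 and 5732 bp in D7 control), Zfp423, a zinc finger factor of progenitor differentiation (5048 and 5572 bp), Dbp, a clock output factor (4735 and 5016 bp), Ier5l (5055 and 5000 bp), Zfpm1, the GATA cofactor FOG1 (4617 and 4885 bp), and Ier2, an immediate early gene (4235 and 4873 bp). All of these loci had a broad region in both lists. Widths of loci, here and below, are summed over the pieces in a list unless the widest region is named. The control width was in 2 pieces also at Bbc3 (widest 3136 bp), Efna5 (4269 bp), Foxo3 (4469 bp) and Foxp2 (2909 bp). The GLI1 width was in 2 pieces at Cic (widest 3008 bp), Ier5l (3132 bp) and Zfp423 (3280 bp), and in 3 at Ier2 (2521 bp). High summit numbers were also found at Dusp4, a MAP kinase phosphatase (11 with GLI1 and 8 in D7 control), Maf (11 and 10), Smad7, an inhibitor of TGF-beta and BMP signalling (11 and 9), and the Eno3 and Pfn1 pair (8 and 12).

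None of the loci named for the highest fold was among those named for width. The highest folds in broad regions were at Zbtb20, a zinc finger repressor (155 with GLI1 and 129 in D7 control), and Sp1 (129 and 124), whose regions were 2589 and 2204 bp wide with GLI1. Then came Skil, a repressor of TGF-beta signalling (120 with GLI1 and 74.2 in D7 control), Kat6b, a histone acetyltransferase (118 and 104), Cdca2 (116 and 111) and Mbd3, a subunit of the NuRD complex (112 and 104). In D7 control they also included Rnf5 (109 with GLI1 and 121 in D7 control), Gsk3b, a kinase of Wnt and Hedgehog signalling (99.0 and 113), and Zswim6 (99.4 and 107).

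Broad loci were mostly shared between the D7 lists. A broad region was present in both at 1042 of 1840 loci (56.6%), with GLI1 alone at 465 (25.3%) and in D7 control alone at 333 (18.1%). Of the members of the GLI1 list 69.2% overlapped a broad control region, and of the control members 75.9% overlapped a broad GLI1 region. Where only 1 list was broad, the other was usually open too and fell a little short. At the 465 loci broad with GLI1 alone, the median width was 2140 bp with GLI1 and 1905 bp in D7 control, and the widest control region reached 1500 bp at 354 and 1800 bp at 223 of them. At the 333 loci broad in D7 control alone, the median was 1927 bp with GLI1 and 2149 bp in D7 control, and the widest GLI1 region reached 1500 bp at 273 and 1800 bp at 167. A different number of pieces was common, since 189 of the 465 had at least 2 control regions and 130 of the 333 at least 2 GLI1 regions. Only 3 loci had no control region at all, and none lacked a GLI1 region. Regions of 1000 to under 2000 bp also rarely lacked a region of the other list. They did so in 245 of 8197 cases with GLI1 and 100 of 7842 in D7 control. Regions under 1000 bp lacked one in 16285 of 32484 cases with GLI1 and 12004 of 28752 in D7 control. Near-complete sharing was thus not particular to broad loci.

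**Figure D3:**
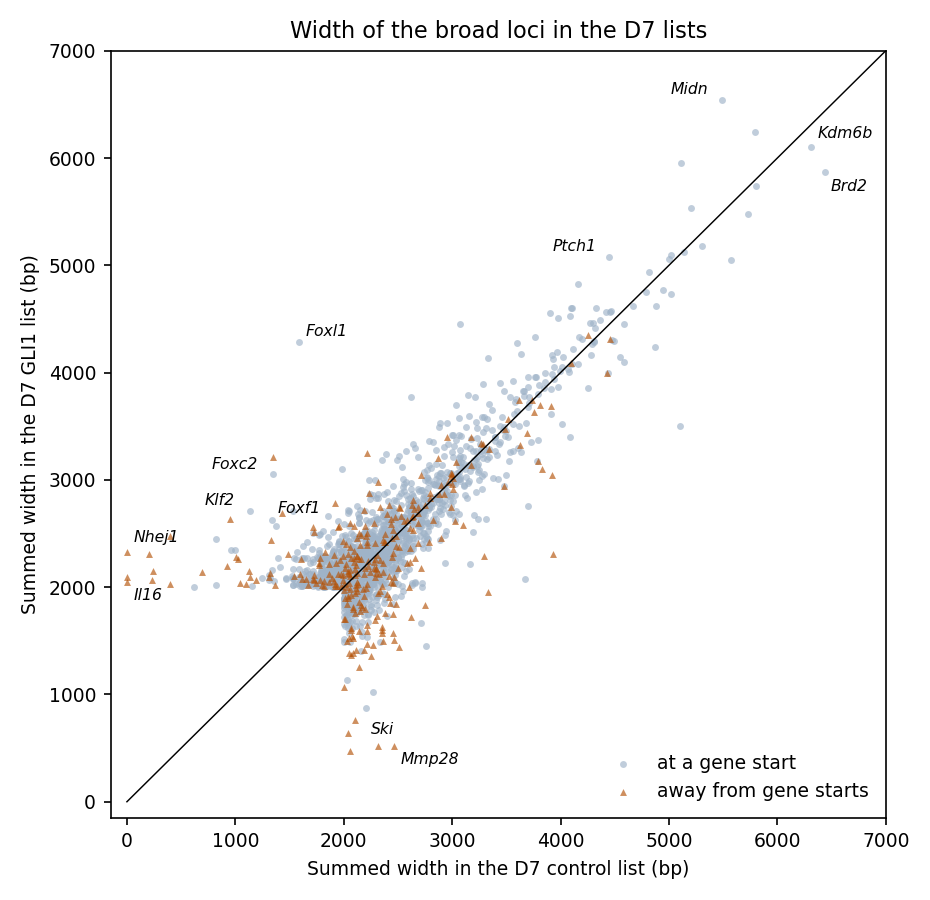
Summed width of the regions at each of the 1840 broad loci in the D7 GLI1 list (vertical, bp) against the D7 control list (horizontal, bp), for loci at a gene start and away from gene starts, with the line of equal width. Most points lie along the line; Foxl1, Il16 and Nhej1 lie far above it and Mmp28 and Ski far below.

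Summed over pieces, 1023 loci were wider with GLI1, 811 narrower and 6 equal, so 55.6% were wider. The loci were chosen by these widths, and more of them were broad with GLI1 alone than in D7 control alone, so this share is a description of the 2 lists. The median difference, GLI1 minus control, was 35 bp (quartiles −138 and 212), and 17 bp at the loci broad in both. Differences of at least 500 bp were found at 148 loci in the direction of GLI1 and at 92 in that of control, and of at least 1000 bp at 33 and 15. The highest fold was greater with GLI1 at 672 of the 1042 loci broad in both, at 367 of the 465 broad with GLI1 alone and at 173 of the 333 broad in D7 control alone. Median log2 ratios of the folds, GLI1 over control, were 0.08, 0.19 and 0.01 in these classes. Each list was scaled to its own background by the authors, and the GLI1 list was the longer in all width classes, so small shifts of width or fold between the lists cannot be told apart from list-wide differences.

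Ptch1, Gli1 and Foxf1 each had a wider locus of higher fold with GLI1. The Ptch1 locus (chr13:63562060-63567137) was a single region of 5078 bp with 12 summits and a highest fold of 49.7 with GLI1, and a single region of 4448 bp with 9 summits and 36.4 in D7 control. It includes the promoter printed above. In the D5 list 2 short regions of together 435 bp lay there. At Gli1, the induced gene (chr10:127338678-127342811), 1 region of 4134 bp with 10 summits and a fold of 31.9 with GLI1 stood over 3 control regions of together 3331 bp with a fold of 13.3. Whether the reads came from the endogenous gene or the induced copy cannot be told from a peak list. Foxf1, a forkhead gene of lung and heart field mesenchyme (chr8:121082596-121085223), had 2628 bp and a fold of 50.4 with GLI1, and 1334 bp and a fold of 10.8 in D7 control. Hhip, whose product binds and inhibits Hedgehog ligands, had no broad region in either list.

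**Figure D4:**
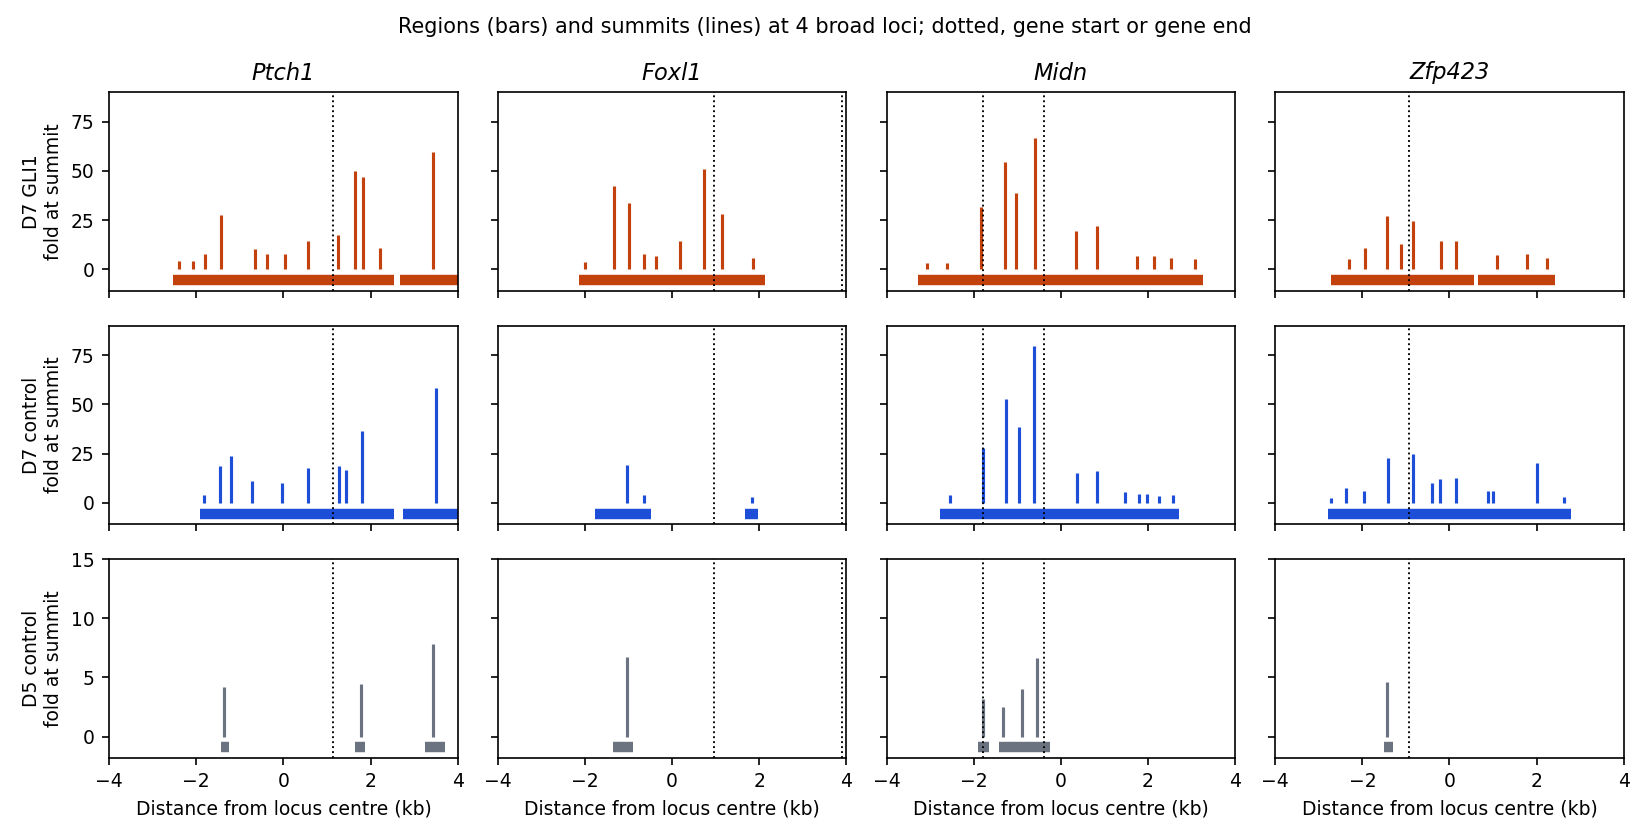
Regions (bars) and summits (lines, height is the authors' fold) in the D7 GLI1, D7 control and D5 control lists within 4 kb of the centre of the Ptch1, Foxl1, Midn and Zfp423 loci, with gene starts, or gene ends where no start was listed, dotted. The Foxl1 locus is 1 region with GLI1 and 2 short ones in D7 control, and Zfp423 is 2 regions with GLI1 and 1 in D7 control. The fold axis of the D5 row has its own scale.

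The greatest gain of width was at Foxl1, a forkhead gene that lies near Foxf1 (chr8:121124595-121128875), with 4281 bp, 9 summits and a fold of 51.1 with GLI1 and 1589 bp in 2 pieces, 3 summits and 19.4 in D7 control. The 3 loci with no control region were in Nhej1, a DNA repair gene (2332 bp with GLI1), in Il16, which encodes an interleukin (2048 bp), and on chromosome 12 more than 100 kb from a protein-coding gene (chr12:109748354-109750448, 2095 bp). The last of these overlapped a D5 region of 266 bp, and those in Nhej1 and Il16 overlapped none. Further gains lay outside genes and away from gene starts. One was 3903 bp from Tle1, which encodes a Groucho-type corepressor (2307 bp wide with GLI1 and 200 bp in D7 control). Others were 38624 bp from Ubl3 (2478 and 398 bp wide) and 69415 bp from Cxcl12, which encodes a chemokine (2155 and 239 bp). One on chromosome 13 had no protein-coding gene within 100 kb (chr13:98502884-98506098, 3215 and 1350 bp).

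Of the 8 greatest losses of summed width, 4 left a short GLI1 region where control was broad. They were inside Mmp28, a matrix metalloproteinase (521 bp with GLI1 and 2466 bp in D7 control, folds 8.60 and 26.6), Ski, a repressor of TGF-beta signalling (515 and 2313 bp, folds 7.02 and 27.0), and Tmem184b (640 and 2038 bp, folds 5.79 and 22.0), and 54149 bp from Snx19 (475 and 2055 bp, folds 5.79 and 20.9). All 4 lay away from gene starts and none overlapped a D5 region. Of the other 4, those at Tgif1 (3501 bp with GLI1 and 5099 bp in D7 control) and Gnb2 (2077 and 3674 bp) were at the gene start. One lay 23317 bp from Ephb3 (2311 and 3928 bp) and one 36974 bp from 1700001O22Rik (1952 and 3328 bp), in each case the nearest gene. The first 3 of these had 2 control regions, and the summed width counts all of each, also where it reaches past the locus. Their widest control region was 3415 bp at Tgif1, 1944 bp at Gnb2 and 2100 bp near Ephb3, in each case narrower than the GLI1 region. The Gnb2 locus was thus broad with GLI1 alone. The highest folds of these other 4 loci differed less. They were 28.3 with GLI1 and 27.4 in D7 control at Tgif1, and 56.3 and 49.7 at Gnb2. Near Ephb3 they were 60.2 and 67.5, and near 1700001O22Rik 44.9 and 38.2.

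Almost every broad region had a place in the D5 list, which the rule did not use. An overlap of at least 1 base was found for 1466 of 1511 broad regions with GLI1 (97.0%, 96.0 to 97.8) and for 1324 of 1379 in D7 control (96.0%, 94.8 to 96.9), while over all regions of these lists it was 42.7% and 44.6%. Regions of 1000 to under 2000 bp overlapped a D5 region in 87.9% with GLI1 and 86.1% in D7 control, and regions under 1000 bp in 28.8% and 30.8%. The overlap was partial. D5 regions covered a median of 38.2% of an overlapped member with GLI1 and 39.5% in D7 control, against 47.7% and 48.5% of regions of 1000 to under 2000 bp and 54.9% and 57.5% of regions under 1000 bp. The covered part thus ran in the opposite order to the share with an overlap, and a wider region has more room to touch a D5 region. More than 1 D5 region lay in 39.2% of the members with GLI1 and 39.5% in D7 control. At loci present at D5 the widest D5 region had a median of 769 bp and at most 1751 bp, and 451 loci held a D5 region of 1000 bp or more.

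Presence at D5 was more frequent at higher folds in every width class. Among regions with a highest fold of 40 or more, 99.1% of broad regions and 99.0% of regions of 1000 to under 2000 bp were present at D5 with GLI1, and 98.5% and 97.1% in D7 control. Between 20 and 40 these shares were 96.3% (94.0 to 97.7) and 92.6% (91.6 to 93.4) with GLI1, and 92.1% (89.1 to 94.3) and 88.6% (87.5 to 89.6) in D7 control. Between 10 and 20 they were 85.4% (77.0 to 91.1) and 74.5% (72.4 to 76.4) with GLI1, and 91.4% (83.9 to 95.6) and 75.9% (73.9 to 77.8) in D7 control. These 2 wider classes thus lay closest at folds of 40 or more. At like fold their intervals lay apart between 10 and 20 in both lists and between 20 and 40 with GLI1. They overlapped in the other groups. Only 17 and 7 broad regions of the 2 lists had a fold under 10. For regions under 1000 bp the share with GLI1 was 22.2% at folds under 10, then 64.4%, 92.5% and 100% at higher folds. In D7 control it was 24.1%, 61.1%, 83.7% and 93.8%. Few of these regions, 79 with GLI1 and 48 in D7 control, had a fold of 40 or more.

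**Figure D5:**
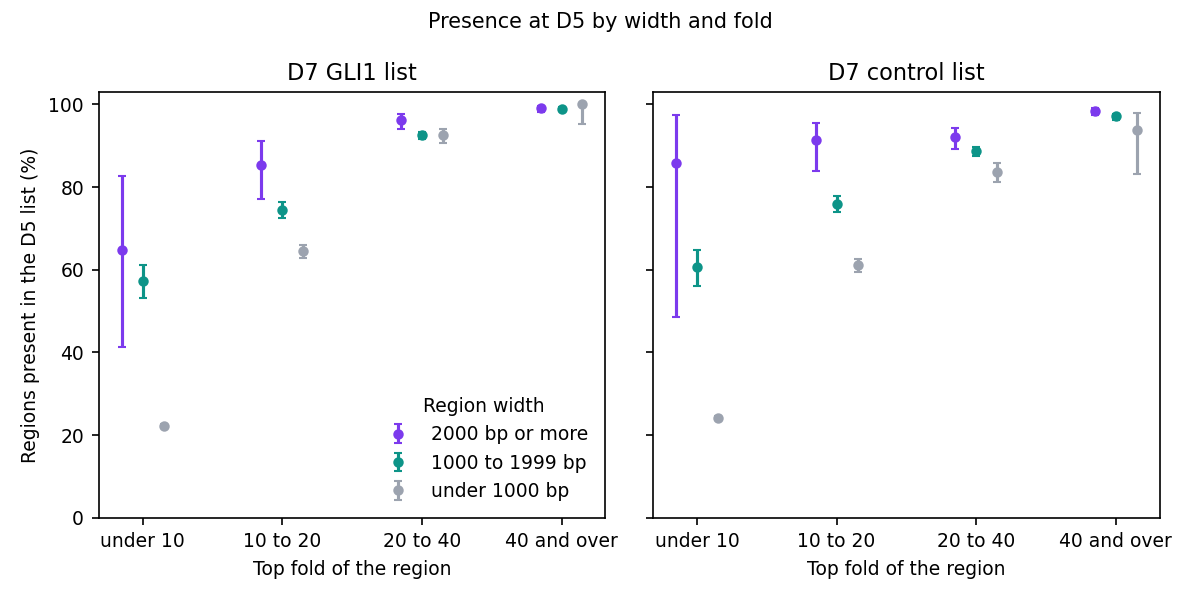
Percent of regions that overlap a D5 region, by the highest fold of the region (groups on the horizontal axis) and by width, for the D7 GLI1 list (left) and the D7 control list (right), with 95% Wilson intervals. With GLI1 the share for broad regions lies between 64.7% at folds under 10 and 99.1% at 40 and over.

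The classes of loci differed in their presence at D5. It was 93.8% for loci broad with GLI1 alone (91.2 to 95.6), 88.3% for loci broad in D7 control alone (84.4 to 91.3) and 98.7% for loci broad in both (97.8 to 99.2). Position moved with this, since 83.0%, 73.6% and 88.4% of these classes lay at a gene start, and its part in the difference was not tested. Of all loci, 288 (15.7%) lay away from gene starts, 136 of them inside a gene. They were present at D5 in 77.8% (72.6 to 82.2), against 98.8% of loci at a start (98.2 to 99.3), and had lower median folds, 30.7 with GLI1 and 32.9 in D7 control, against 49.3 and 46.7 at starts. Away from starts, broad regions were at D5 more often than regions of 1000 to under 2000 bp. With GLI1 the shares were 85.4% (79.9 to 89.6) against 56.6% (54.4 to 58.8). In D7 control they were 79.5% (73.6 to 84.4) against 52.3% (50.1 to 54.5). Median folds differed too, at 36.9 against 18.8 with GLI1 and 36.4 against 20.5 in D7 control. The part of fold in this was not tested.

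Only 82 loci had no D5 region, and 64 of these lay away from gene starts. They comprised 29 broad with GLI1 alone, 39 in D7 control alone and 14 in both. The widest were at Septin9, a cytoskeletal GTPase (3046 bp with GLI1 and 3923 bp in D7 control), Chd3, a NuRD chromatin remodeller (3770 and 3211 bp), Tmem132e (3367 and 2786 bp), Bop1, a ribosome biogenesis factor (2286 and 3297 bp), and near Gpr61 (2578 and 3102 bp, 10802 bp from the gene). The widest D5 regions at broad loci were at Kat6b (1751 bp), Lpxn and Zfp91 (1750 bp), Sp4 (1734 bp), Gm20783 (1734 bp) and Ube2d3 (1714 bp), and all of these loci were broad in both D7 lists. The D5 list itself held a single region of at least 2000 bp, on chromosome 17 (chr17:39843095-39846336, 3242 bp), with a fold of 2.38 and no region of either D7 list. The tag rmBLchrM is in the names of the D7 lists alone. Whether filtering removed this place from them was not tested, so it is not read as a region lost by D7.

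Of the lists described, that of immediate early and Klf/Sp genes had the highest share of genes with a broad region. Not every gene of this list is rapidly induced. Of all protein-coding genes, 8.58% had a broad region as nearest or overlapping with GLI1, 7.88% in D7 control and 10.3% in either. Of the 27 genes of the list, 21 had one with GLI1 and 17 in D7 control. Examples were Junb, an AP-1 subunit (5184 bp with GLI1 and 5309 bp in D7 control), Myc (4414 and 4318 bp), Jun (4317 and 4200 bp) and Ier2. These widths are summed, over 3 pieces in each list at Junb and over 2 in D7 control at Jun. The 4 that were broad with GLI1 alone were Klf2, Klf6, Klf9 and Mycl, against 2.39% of all genes broad with GLI1 alone, and the Klf2 locus was 2710 bp with GLI1 and 1136 bp in D7 control.

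Among 39 forkhead genes, 14 had a broad region with GLI1 and 11 in D7 control. The 5 broad with GLI1 alone were Foxc2, Foxd1, Foxf1, Foxf2 and Foxl1, and the 2 broad in D7 control alone were Foxj3 and Foxk1, where 1.7% of all genes were broad in D7 control alone. Foxc2, a mesenchyme gene, had 3057 bp with GLI1 and 1344 bp in D7 control, with folds of 27.4 and 11.7. Foxd1 had a locus of 2501 bp with GLI1 and 1718 bp in D7 control, and was the nearest gene to another, 34765 bp away, of 2094 bp with GLI1 and 1131 bp in D7 control, while Foxf2 had 2718 bp in 1 region with GLI1 and together 2153 bp in D7 control. At Foxj3 the widths were 1720 bp with GLI1 and 2027 bp in D7 control, and at Foxk1 1719 and 2007 bp. Foxc2, Foxf1 and Foxl1 are neighbours on chromosome 8, so they are not independent cases.

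In the Hedgehog list, 7 of 26 genes had a broad region with GLI1 and 7 in D7 control. Gli1 was broad with GLI1 alone and Spop, an adaptor for GLI degradation, in D7 control alone (1744 bp with GLI1 and 2222 bp in D7 control). Ptch1, Gas1, Gli3, Gsk3b, Prkaca and Sufu were broad in both. Sufu, which restrains GLI factors, had 3390 bp with GLI1 and 3226 bp in D7 control. Gas1, a Hedgehog co-receptor, had 3407 and 3484 bp, with a fold of 34.4 with GLI1 and 70.0 in D7 control. The genes of the pathway did not all move with GLI1 in 1 direction.

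Of 41 genes of BMP, FGF, Wnt and Notch signalling, 15 had a broad region in each D7 list. Among the widest by summed width was Hes1, a Notch target (5096 bp with GLI1 and 5018 bp in D7 control). Others were Smad7 (4598 and 4109 bp), Axin2, a feedback inhibitor of Wnt signalling (3850 and 3909 bp), and Bmp4 (3700 and 3814 bp). Hes1 was in 2 pieces in each list and Axin2 in 2 with GLI1. Smad7 was in 3 pieces in D7 control, the widest of 2207 bp. Grem1 and Jag1 were broad with GLI1 alone. At Grem1 the summed width was 2829 bp with GLI1 and 2607 bp in 2 pieces in D7 control. At Jag1 it was 2002 bp with 4 summits with GLI1 and 2721 bp with 6 summits in 2 pieces in D7 control, so the control list covered more there. Fgfr1 (1945 bp with GLI1 and 2316 bp in D7 control) and Spry4 (1887 and 2383 bp) were broad in D7 control alone. Cardiac transcription factor genes had a broad region in 6 of 27 cases with GLI1 and 5 in D7 control. The widest was Zfpm1, then Prdm16 (2524 bp with GLI1 and 2948 bp in D7 control), Mef2d (2437 and 2207 bp) and Smarcd3, a subunit of cardiac chromatin remodelling complexes (2427 and 1960 bp). Of 25 contractile and calcium handling genes, 2 had one with GLI1 and 4 in D7 control. Slc8a1, the sodium-calcium exchanger (1919 bp with GLI1 and 2039 bp in D7 control), and Tnnc1, cardiac troponin C (1810 and 2209 bp), passed the limit in D7 control alone, close to it.

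Other lists ranged from frequent to none. Housekeeping genes had a broad region in 5 of 18 cases with GLI1 and 7 in D7 control, the widest at Ywhaz (3054 bp with GLI1 and 2995 bp in D7 control). Pluripotency genes had one in 5 and 4 of 19, among them Lin28a (3639 and 3601 bp) and Sall4 (2890 and 2746 bp), and neural progenitor genes in 4 and 5 of 24, among them Zic2 (2945 and 3106 bp) and Irx5 (3031 and 3070 bp). In the primitive streak list Pdgfra alone had broad regions, 2 in each D7 list, out of 20 genes. Only Rpl7 of 72 ribosomal protein genes had one. A region of 1000 to under 2000 bp lay at the start of 55 of them (76.4%), against 34.2% of all protein-coding genes. None of 39 Hox genes, 19 endothelial and blood genes or 16 endoderm genes had one. The share of all protein-coding genes was 10.3% in either D7 list. For lists of 19 and 16 genes, none is not far from that share. At 28 of the Hox genes (71.8%) no region of either D7 list lay at the start, against 36.7% of all protein-coding genes.

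Each locus was assigned to the gene it lay in or, failing that, to the nearest within 100 kb, and some genes took more than 1 locus. Rai1 took 4, all within the gene, and 1700001O22Rik, Bcl9l, Cxxc5, Zmiz1, Sobp, Ube2v1 and Gse1 took 3 each, while 71 genes took 2 and 1661 took 1. The 3 of Gse1 lay within the gene. Those of 1700001O22Rik lay 36974, 77034 and 87967 bp away from it, and 1 of those of Zmiz1 lay 79783 bp away, so being nearest does not make a locus part of a gene. At Rai1, a chromatin-associated regulator, the loci had widths of 2645, 2327, 2457 and 2183 bp with GLI1 and 2535, 1826, 2899 and 2503 bp in D7 control. Bcl9l encodes a coactivator of beta-catenin, and 1 of the loci within it (chr9:44497837-44500435) was broad with GLI1 alone, with a fold of 47.0 with GLI1 and 18.7 in D7 control. Near Sobp, 218 and 6933 bp from the gene, 2 loci were broad in D7 control alone and absent at D5 (1722 and 1963 bp with GLI1, 2625 and 2122 bp in D7 control). Within 10 kb of another locus lay 117 loci (6.36%), so neighbouring loci are not independent of one another. By chromosome, the share of regions that were broad was highest on chromosome 17, at 5.68% with GLI1 and 5.65% in D7 control, and among the lowest on chromosome 1, at 2.69% and 2.81%.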

How the data were processed

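ATAC-seq peaks of mouse embryonic stem cell-derived cardiac progenitors were analysed as 3 lists, 1 per group, for chromosomes 1 to 19. Per the submitters' processing notes, MACS2 2.1.1, Picard, SAMtools 1.5 and Bowtie2 2.3.2 were used with the build mm10. Each deposited list gives, for every summit, the authors' fold (a ratio to background), a −log10 q by the authors, a deposited score, and the deposited distance in bases between peak start and summit. A peak with several summits has 1 row per summit with the same borders, so merging overlapping rows into regions joined no separate peaks (0 in each list). The shape of the lists is known only from the values. How the D5 list differs from the others is known from the values and from the tags SPMR and rmBLchrM in the D7 names.

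Widths, overlaps (at least 1 base), gene starts, nearest genes within 100 kb and Wilson intervals were computed in Python 3.11.15 with pandas 2.3.3 and statsmodels 0.14.6. Gene starts came from the RefSeq promoter table of GRCm38.p6. The 4205 of 20661 protein-coding genes without an entry there were placed by either gene end. Of 430 entries in 15 lists of protein-coding genes, 422 matched a gene on these chromosomes, and a list of noncoding RNA genes was looked up separately. The steps were tested on simulated intervals. The members and gene lists were chosen with earlier results of these data known. Genes were named by a rule: Gli1, Ptch1, Hhip and Foxf1, and those at the extremes of width, summit number, fold, width difference, D5 width and number of loci, plus the widest of each list. No test was made, because each group has 1 pooled list and width chose the members. Chromosomes X and Y entered as an alternative only.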

Additional observations from a re-analysis of the deposited data

How the results depend on the processing

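No paired analysis was possible because the libraries of a group were merged in its single list, and so leaving out a library was not possible either. Of 82 values under 11 alternatives, 24 moved. Only the share of loci wider with GLI1 was checked for a reversal, and it stayed above 50%. A minimum width of 1500 bp gave 4223 broad regions with GLI1 and 3939 in D7 control, and 1056 loci with GLI1 alone, 771 in D7 control alone and 3154 in both, of whose regions 95.1% and 93.2% were present at D5. A minimum of 3000 bp gave 235 and 210 regions, 82, 57 and 152 loci, 98.7% and 98.1% present at D5, 89.8% and 88.6% at a gene start, and a median of 7 summits in each list. Fewer or more regions follow from the limit itself. With summits of a −log10 q of at least 5 in every list, 91.7% of broad regions with GLI1 and 91.4% in D7 control were present at D5. When D5 regions had to cover 50% of a broad region, these were 19.6% and 20.6%. Starts of the promoter table alone, an alternative chosen after seeing the data, left 72.2% and 71.6% at a gene start. Fewer genes have an entry there, and no gene end is counted in place of a start. Joining peaks up to 100 bp apart, equal list lengths, chromosomes X and Y, the start inside the region, the 50% overlap between D7 lists and the widest piece in place of the sum changed no result beyond its interval or by 1.5 times. Equal lengths were reached by dropping the GLI1 summits of lowest −log10 q. A region keeps its borders while any of its summits stays, so neither this setting nor the −log10 q limit could readily change the broad counts. The share of loci wider with GLI1 ran between 55.4% and 56.1%. Loci broad with GLI1 alone outnumbered those broad in D7 control alone at each setting run.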

Other observations

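Noncoding genes were placed apart from the protein-coding ones. Among 12 listed noncoding RNA genes, Malat1 and Neat1, neighbours on chromosome 19 whose RNAs stay in the nucleus, had broad regions within the gene or near it in both D7 lists. The widest at Malat1 was 2531 bp with GLI1 and 2639 bp in D7 control, with folds of 65.8 and 78.5. At Neat1 it was 2364 and 2607 bp, with folds of 36.7 and 35.3. Gas5, which hosts small nucleolar RNAs, came closest among the others, with 1981 bp with GLI1 and 1506 bp in D7 control. H19 and Mir17hg had no region in any of the lists.

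Of 10 histone cluster genes, 2 had a broad region with GLI1 and 1 in D7 control, against 8.58% and 7.88% of all protein-coding genes. H1f2 was broad with GLI1 alone (2019 bp with GLI1 and 1895 bp in D7 control) and so was the start of H4c8 (2127 and 1855 bp). The control gene counted is H4c8 too, as the nearest gene to a locus 13847 bp away that was 2953 bp wide with GLI1 and 2894 bp in D7 control, with 8 and 6 summits.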
